A study of Mus musculus with 59 samples.

Results

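The 15 RNA libraries made at day 14 of the sandwich co-cultures, in which mouse neurons and glia share a dish and RNA is taken from either cell layer, were set against each other by the cell type of origin. They were chosen by their labels alone: day 14, culture, any pairing, which gave 7 neuron libraries and 8 glia libraries of the 59 libraries of the series (43 from cultures and 16 from spinal cord). SOD1_G93A is a mutant human superoxide dismutase transgene used to model amyotrophic lateral sclerosis (ALS). The neuron libraries were SOD1_G93A mutant neurons grown with mutant glia (2 libraries), mutant neurons with WT (wild-type) glia (1), WT neurons with mutant glia (2) and WT neurons with WT glia (2). The glia libraries were mutant glia with mutant neurons, mutant glia with WT neurons, WT glia with mutant neurons and WT glia with WT neurons (2 each). The strain, the tissue and age from which the cells came, whether any line is a single clone, and how the partners were separated before extraction are unknown from the sources used here. The question was which genes still distinguished the fractions late in culture, and the 13 libraries of day 3 and 15 of day 7 served as the earlier reference.

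Neurons are recognised by their cytoskeleton (neurofilaments, beta-III tubulin), their synaptic vesicle and SNARE proteins and their ion channels, and spinal motor neurons by the transcription factors Mnx1 and Isl1 and by the acetylcholine genes Chat and Slc18a3. Astrocytes, the main glia of brain and spinal cord, take up glutamate and potassium, make glutamine and cholesterol-carrying lipoproteins, and express Gfap, Aqp4, Slc1a2 and Aldh1l1. Cells of the nervous system also carry a record of their position along the head-to-tail axis: HOX transcription factors are on in the hindbrain and spinal cord and off in the forebrain, where genes such as Emx2 and Otx1 are used.

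Values are reads scaled by gene length and library (RPKM), rescaled by 1 median-of-ratios factor per library. Differences are neuron minus glia on the scale of log2(value + 1), and a fold is 2 to that power. This scale understates the difference of genes with low values, and it can understate or overstate how that difference changes between days. A gene was called at an adjusted p under 0.05. Reads on genes were 5.95 to 13.0 M in the neuron libraries (median 8.98 M) and 2.88 to 20.1 M in the glia libraries (median 13.5 M). Libraries numbered 1 held 2.88 to 8.98 M reads and those numbered 2 held 9.85 to 20.1 M, so that replicate number and depth went together. The replicates are not stated to be separate cultures, so the p-values reflect library-to-library spread, which may be technical.

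The fractions differed over much of the transcriptome, mostly by small amounts. In a model of all 43 culture libraries the median size of the log2 difference at day 14 was 0.3012, and 1903 of 15571 genes differed by at least 1. Of 14431 genes tested, 7136 were called (49.4%), 3571 higher in neuron libraries (24.7%) and 3565 higher in glia libraries (24.7%). Every neuron library was above every glia library for 1765 genes (12.2%), and the reverse held for 1419 (9.83%). Within the libraries numbered 1 the count called was 7604, and within those numbered 2 it was 5085, each with 1 mean for each fraction. In a principal component analysis the first component (60.84% of the variance) separated the fractions, at 39.17 to 62.33 for neuron and -46.62 to -34.95 for glia libraries, and the second (14.36%) went with the replicate number. All 7 neuron libraries held the defining neuronal markers above the glia libraries (Tubb3, Map2, Snap25 and Rbfox3), and astrocyte markers were present in both fractions, as given below. Bulk RNA cannot tell fewer cells of a type from less RNA per cell.

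Of the 12 genes with the largest difference toward neurons, 4 were HOX genes (Hoxa5, Hoxb6, Hoxb8 and Hoxb3) and 6 were Nefl and Prph, intermediate filaments of axons, Sncg, a synuclein, Scg2 and Resp18, proteins of dense-core granules, and Ly6h, a membrane-anchored binding partner of nicotinic receptors. The others were Hopx, a homeodomain-only protein, and the unnamed entry uc007lbs.1. Of the 12 with the largest difference toward glia, 11 were Apod and Rarres2 (secreted carriers and signals), Inmt (a methyltransferase), Lcn2 (lipocalin 2), Islr, Aldh1a2 (retinoic acid synthesis), Col3a1 and Dcn (fibrillar matrix), Pla1a (a phospholipase), Hepacam and Aqp1 (astrocyte or epithelial membrane proteins).

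**Figure D1:**
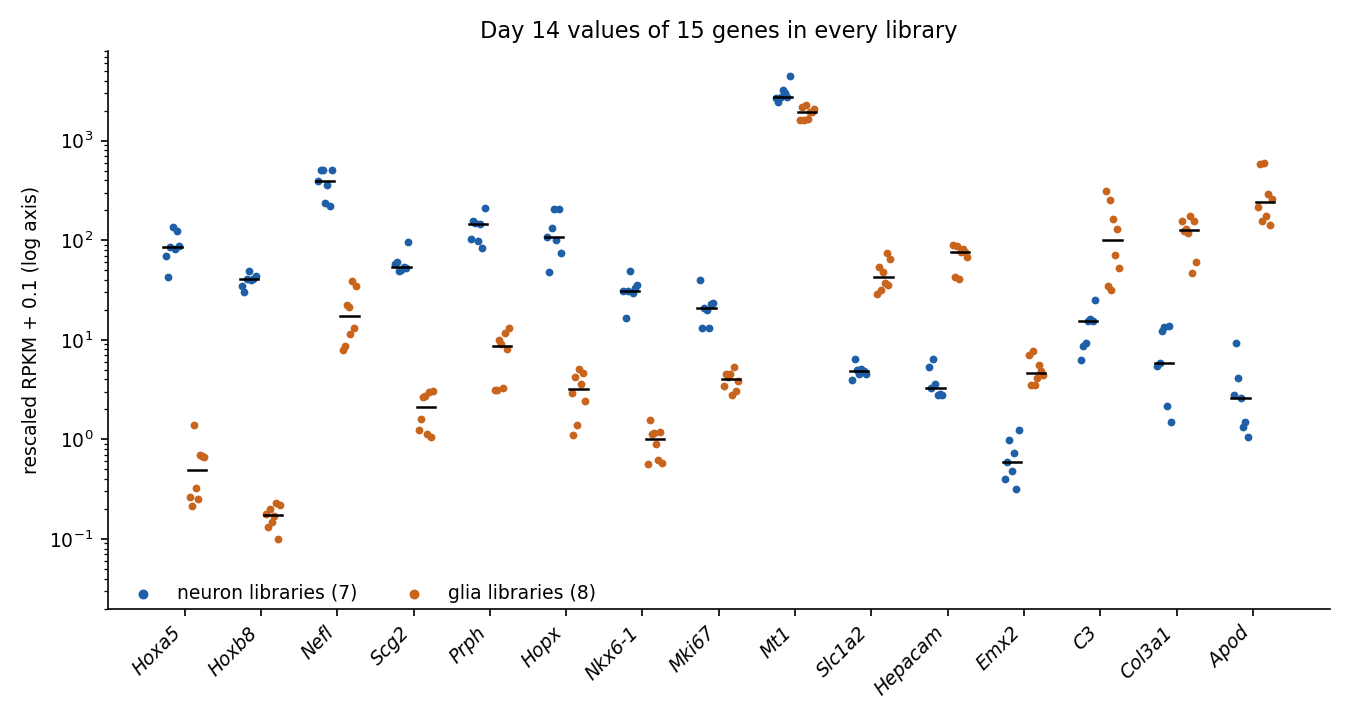
Rescaled RPKM plus 0.1 on a log axis for 15 genes at day 14, with 1 point per library (blue, 7 neuron; orange, 8 glia) and a black bar at each median. For 8 of the 9 genes on the left, from Hoxa5 to Mki67, the neuron libraries lie apart from the glia libraries by several fold, while Mt1 differs by 1.59-fold; the 6 genes on the right, from Slc1a2 to Apod, are higher in every glia library.

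The promoters of 7 of these genes are shown as examples, picked after their values were seen, because the letters around the starts were compared between the sides below. Each is 300 bases from RefSeq (build GRCm38.p6), 250 before and 50 after the annotated start, with searched motifs in capitals: the TATA box, spelled TATAAA, on the strand of the gene, and on both strands the box spelled CCAAT, the CRE spelled TGACGTCA and the HOX-PBX motif spelled TGATTNAT. Hoxa5, Hoxb8, Scg2 and Prph were higher in neuron libraries and Apod, Inmt and Col3a1 in glia libraries.
Hoxa5 (chr6:52204538-52204837, minus strand): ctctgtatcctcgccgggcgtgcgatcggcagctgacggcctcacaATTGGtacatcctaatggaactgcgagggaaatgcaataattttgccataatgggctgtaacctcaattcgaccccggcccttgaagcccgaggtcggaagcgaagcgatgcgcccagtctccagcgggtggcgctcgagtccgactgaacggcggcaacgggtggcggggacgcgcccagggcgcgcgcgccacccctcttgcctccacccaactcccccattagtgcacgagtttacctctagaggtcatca
Hoxb8 (chr11:96281655-96281954, plus strand): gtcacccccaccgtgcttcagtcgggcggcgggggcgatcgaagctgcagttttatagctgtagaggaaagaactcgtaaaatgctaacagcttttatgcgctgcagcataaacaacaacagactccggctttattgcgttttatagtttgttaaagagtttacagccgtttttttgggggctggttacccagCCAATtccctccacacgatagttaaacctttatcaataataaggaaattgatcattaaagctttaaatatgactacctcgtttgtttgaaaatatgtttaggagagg
Scg2 (chr1:79439977-79440276, minus strand): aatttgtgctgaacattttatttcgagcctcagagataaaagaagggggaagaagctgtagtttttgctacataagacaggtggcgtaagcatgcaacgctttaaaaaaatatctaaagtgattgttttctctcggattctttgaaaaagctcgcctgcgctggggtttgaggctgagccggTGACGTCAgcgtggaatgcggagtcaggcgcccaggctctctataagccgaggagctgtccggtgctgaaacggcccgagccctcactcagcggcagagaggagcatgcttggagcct
Prph (chr15:99054924-99055223, plus strand): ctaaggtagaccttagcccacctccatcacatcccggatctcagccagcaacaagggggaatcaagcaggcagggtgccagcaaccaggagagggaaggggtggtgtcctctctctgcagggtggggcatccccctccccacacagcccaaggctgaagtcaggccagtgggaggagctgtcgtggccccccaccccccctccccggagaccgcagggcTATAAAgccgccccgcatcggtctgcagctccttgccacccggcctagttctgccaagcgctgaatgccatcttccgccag
Apod (chr16:31314759-31315058, minus strand): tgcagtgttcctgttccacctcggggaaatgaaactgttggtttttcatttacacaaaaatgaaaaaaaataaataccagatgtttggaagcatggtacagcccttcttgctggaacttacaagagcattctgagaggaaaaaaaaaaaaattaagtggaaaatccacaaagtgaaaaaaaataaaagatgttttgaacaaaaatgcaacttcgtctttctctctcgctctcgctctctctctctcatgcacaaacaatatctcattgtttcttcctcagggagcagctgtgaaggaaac
Inmt (chr6:55174941-55175240, minus strand): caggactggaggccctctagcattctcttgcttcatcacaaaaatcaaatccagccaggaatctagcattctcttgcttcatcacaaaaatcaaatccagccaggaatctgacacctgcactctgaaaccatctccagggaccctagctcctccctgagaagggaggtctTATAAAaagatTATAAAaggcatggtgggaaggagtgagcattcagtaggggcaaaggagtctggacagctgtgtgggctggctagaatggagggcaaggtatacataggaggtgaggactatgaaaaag
Col3a1 (chr1:45311288-45311587, plus strand): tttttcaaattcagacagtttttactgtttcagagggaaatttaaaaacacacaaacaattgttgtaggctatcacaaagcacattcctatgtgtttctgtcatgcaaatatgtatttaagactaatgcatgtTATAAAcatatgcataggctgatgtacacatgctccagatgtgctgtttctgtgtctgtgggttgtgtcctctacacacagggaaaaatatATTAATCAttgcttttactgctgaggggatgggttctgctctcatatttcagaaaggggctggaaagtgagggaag

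Scg2 held the CRE letters from base 183 of its window, Prph a TATA box from base 220, and Inmt 2 TATA boxes, from bases 171 and 182. Col3a1 held a TATA box from base 134 and the HOX-PBX letters from base 225 on the minus strand, although its gene was low in the fraction with HOX transcripts. Across all 10412 tested genes matched to a promoter by symbol (the first listed for each), TATAAA was present in 4.51%, against 9.45% of 550 promoters of genes at least 1 log2 unit higher in glia libraries and 6.74% of 697 at least 1 higher in neuron libraries. The AP-1 letters TGANTCA were in 8.73% of the glia-high, 4.73% of the neuron-high and 4.98% of all promoters. The CRE letters were in 1.27%, 3.59% and 3.28%, and the HOX-PBX letters in 3.27%, 2.15% and 1.43%. The median ratio of observed to expected CpG was 0.526 in glia-high, 0.706 in neuron-high and 0.762 in all promoters. Of the promoters shown, Apod had 4 CpG in its window and Inmt and Col3a1 had 0. Hoxa5 had 29, Scg2 16, Hoxb8 13 and Prph 10. Other named genes went the other way, with 50 CpG in the glia-high Aldh1a2 and 5 in the neuron-high Resp18. These are descriptions of letters, not of binding, and were not tested.

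HOX transcripts belonged to the neuron libraries and were near 0 in glia libraries. All 20 of 27 listed HOX genes that passed the filter on low values were higher in neuron libraries, with no overlap between fractions (medians of the log2 differences, 3.77 for the list and 0.00 for all genes tested), and the other 7 stayed under the filter in both fractions. Hoxa5 ranged from 42.8 to 134 over the 7 neuron libraries (median 84.9) and from 0.112 to 1.28 over the 8 glia libraries (median 0.394). That is a 58.2-fold difference (log2 5.86, SE 0.16, adjusted p = 2.71e-08). Hoxb8 ranged from 30.2 to 49.0 (median 40.3) against 0 to 0.128 (median 0.0751), a log2 difference of 5.23 (SE 0.08, adjusted p = 2.65e-09). No glia library reached the lowest neuron library for either gene.

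Since glia values were near 0, each HOX gene passed the filter through its neuron level, so the count is a description. The 15 of highest mean in neuron libraries belonged to paralog groups 2 to 8, such as Hoxb6 at 31.1 to 54.1, Hoxb5 at 17.0 to 25.4, Hoxc4 at 11.4 to 24.3 and Hoxb3 at 13.4 to 22.4. Hoxb9 (3.42 to 6.03) and Hoxc6 (1.49 to 8.19) were lower, and Hoxa9, Hoxc8, Hoxc9 and Hoxd9 had means of 0.11 to 0.28. At day 3 the neuron libraries had held more of most of them: Hoxb5 went from a mean of 126 at day 3 to 21.5 at day 14, Hoxb9 from 23.4 to 5.39, Hoxc6 from 26.3 to 5.33 and Hoxb8 from 96.8 to 42.6, whereas Hoxa5 had 71.3 and 95.4 and Hoxb6 45.7 and 44.6. Since glia values lay near 0 at each day, the size of a HOX difference and its change with time follow the pseudocount, and no test of that change is given for them.

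Genes of forebrain and midbrain position had the opposite side. Of 11 tested, 8 were higher in glia libraries and 0 in neuron libraries (median log2 difference -1.87). In the model of all 43 culture libraries the median level of the list at day 14 was 0.417 in neuron and 3.34 in glia libraries. Members low in neuron libraries passed the filter through their glia level, so the count is a description. Emx2, a homeodomain factor of the developing cortex, was at 3.38 to 7.63 in glia libraries (median 4.51) and at 0.219 to 1.14 in neuron libraries (median 0.495), with a log2 difference of -1.87 (SE 0.21, adjusted p = 0.000103). Every glia library was above every neuron library, and the same held for Six3, Otx1, Otx2, Dmrta2 and Nkx2-1 but not for Lhx2, where the highest neuron library (10.9) passed the lowest glia library (10.1). Emx2 had a log2 difference of -2.28 at day 3, and its change to day 14 (0.36, SE 0.25, adjusted p = 0.22) did not pass. Without rescaling it passed at 0.71 toward neurons (adjusted p = 0.033), and with voom on recovered reads at 1.34 (adjusted p = 0.032).

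Genes of neuronal identity stayed higher in the neuron libraries as a group. Of 25 pan-neuronal genes 24 were higher in neuron libraries and 0 in glia libraries (median log2 difference 2.37), with 22 not overlapping. Nefl, the light neurofilament chain, was at 219 to 511 in neuron libraries (median 396) and 7.74 to 38.7 in glia libraries (median 17.2), a 23.0-fold difference (log2 4.53, SE 0.21, adjusted p = 5.6e-07). Snap25, a SNARE of vesicle fusion, was at 26.1 to 45.6 (median 36.4) against 0.625 to 3.02 (median 1.62), 15.0-fold (log2 3.91, SE 0.10, adjusted p = 2.19e-08). Both were higher in every neuron library than in any glia library. Thy1, an adhesion protein on the list, was the member not called, at 44.2 to 88.6 against 65.7 to 150 (log2 -0.54, adjusted p = 0.0516), though it was called higher in glia libraries in 9 of 28 alternatives.

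Among motor neuron genes 14 of 18 tested were higher in neuron libraries and 1 in glia libraries (median 1.88). Slc18a3, the vesicular acetylcholine transporter, was at 14.4 to 29.4 against 0.191 to 1.79, 11.7-fold (log2 3.55, SE 0.14, adjusted p = 1.93e-07). Ret, a receptor for the GDNF family, was at 17.5 to 28 against 0.555 to 1.94. Levels of the transcription factors were low by then: Mnx1 at 3.11 to 10.3 and Isl1 at 1.91 to 3.79 in neuron libraries, against at most 0.584 and 0.212 in glia libraries, still without overlap. The member higher in glia libraries was Aldh1a2, which makes retinoic acid in motor neurons of the limb columns and also in meninges, at 9.48 to 87.8 against 0.236 to 1.32 (log2 -4.15, SE 0.42, adjusted p = 5.33e-05).

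Synaptic, channel and secretory genes showed how much of the neuronal programme was left. Of 30 presynaptic genes 29 were higher in neuron libraries and 0 in glia (median 1.26). Cplx1, a complexin that clamps vesicle fusion, was at 25.5 to 68.2 against 0.447 to 4.30, 16.3-fold. Of 27 postsynaptic genes tested 16 were higher in neuron libraries, 0 in glia libraries (median 0.61), and the NMDA receptor subunit Grin1 was at 1.85 to 5.93 against 0.141 to 0.404. The AMPA receptor subunits Gria2 (log2 -0.23), Gria3 (-0.25) and Gria4 (0.04) were not called.

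Ion channel genes were higher in neuron libraries in 19 of 26 and in glia libraries in 1 (median 1.06). Neuronal RNA binding genes were higher in neuron libraries in 14 of 16 and in glia libraries in 0 (median 1.31), with the splicing factor Rbfox1 at 7.04 to 16.8 against 0.236 to 0.797.

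Secretory granule genes were split. Of 20 tested, 16 were higher in neuron libraries and 2 in glia libraries (median 1.44). The granule proteins Scg2 (49.4 to 95.2, median 54.1, against 0.954 to 2.98, median 2.04; 21.3-fold, log2 4.42, SE 0.15, adjusted p = 8.13e-08) and Chga (16.0 to 31.2 against 0.251 to 2.38) did not overlap between fractions. The peptides Vip (5.50 to 32.4 against 0.0681 to 2.19) and Sst (3.67 to 127 against 0 to 2.17) varied most among neuron libraries, Sst being highest in mutant neurons with mutant glia, library 2. By contrast the peptide-processing enzyme Cpe, at 178 to 262 in neuron and 830 to 1042 in glia libraries (log2 -2.07, SE 0.09, adjusted p = 4.78e-07), and the granule protein Scg3, at 16.2 to 34.5 against 62.3 to 135 (log2 -2.21, adjusted p = 1.29e-05), were higher in every glia library.

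Astrocyte genes were mostly higher in glia libraries, but with small differences for many. Of 24 astrocyte genes 20 were higher in glia libraries and 1, Id4, in neuron libraries (median -1.07), with 11 not overlapping. Gfap was at 53.0 to 276 in glia libraries (median 168) and 15.9 to 129 in neuron libraries (median 24.8), a difference of -1.69 (SE 0.30, adjusted p = 0.00161) with overlap. Its 3 values in mutant neuron libraries were 59.5 to 129 and its 4 in WT neuron libraries 15.9 to 24.8. Aldh1l1 was at 88.8 to 186 against 71.7 to 116, also with overlap, and its difference was -0.68 (SE 0.20, adjusted p = 0.019). Sox9 and Fgfr3 differed by -1.13 (called) and 0.07 (not called).

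A subset of astrocyte genes remained far apart. Hepacam, an astrocyte adhesion protein, was at 40.9 to 90.4 in glia libraries (median 75.7) and 2.69 to 6.26 in neuron libraries (median 3.20), 14.6-fold (log2 -3.87, SE 0.16, adjusted p = 2.36e-07). Slc1a2, the main glutamate transporter of astrocytes, was at 28.8 to 74.1 (median 42.4) against 3.88 to 6.39 (median 4.75), 7.46-fold (log2 -2.90, SE 0.13, adjusted p = 5.17e-07). Neither overlapped between fractions, and the receptor Ntsr2 (-3.36), the glutamine transporter Slc38a3 (-3.36) and Mlc1 (-2.55) did not either.

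Of 17 genes of astrocyte glutamate, ammonia and potassium handling 14 were higher in glia libraries and 0 in neuron libraries (median -1.21), and of 15 reactive astrocyte genes 12 and 0 (median -1.38). Lcn2 was at 35.4 to 108 (median 46.3) against 0.382 to 1.19 (median 0.727), 30.8-fold (log2 -4.94, SE 0.23, adjusted p = 5.21e-07), without overlap. Serpina3n, a protease inhibitor, was at 117 to 718 against 27.2 to 56.0 (log2 -2.36). Hspb1, Tnc and Cp of the same list were not called.

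Carriers of lipid, complement and lysosomal genes were on the glia side as well. Apod, a lipocalin of glia and meninges, had the largest day 14 difference of the named genes on the scale of log2(value + 1), at 143 to 591 (median 240) against 0.957 to 9.12 (median 2.53), 66.5-fold (log2 -6.06, SE 0.29, adjusted p = 6.85e-07). That rank depends on the pseudocount, since genes near 0 in glia libraries are understated more. Hoxb8 had means of 39.7 in neuron and 0.0721 in glia libraries, and uc007lbs.1 23.4 and 0. Apoe was the most abundant glia-high gene among those without overlap, at 3513 to 4912 (median 4084) against 310 to 1646 (median 673), 6.02-fold (log2 -2.59, SE 0.24, adjusted p = 2.94e-05), and Cst3, a protease inhibitor, was at 2407 to 3522 against 334 to 693. Apod, Apoe and Cst3 did not overlap between fractions. In the lipoprotein list as a whole 8 of 16 were higher in glia libraries and 6 in neuron libraries, among them the fatty acid transporter Cd36, at 10.1 to 133 against 1.63 to 3.32, whose highest value was again in mutant neurons with mutant glia, library 2.

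All 19 lysosomal genes were higher in glia libraries (median -0.71), with 10 not overlapping. The proteases Ctsd (1903 to 2135 against 431 to 1738) and Ctsb (718 to 1053 against 226 to 697) differed by 2.19-fold and 2.09-fold, and Ctsk, an enzyme of matrix-degrading cells, by 7.83-fold. Of 12 complement genes 9 were higher in glia libraries and 0 in neuron libraries (median -1.34): C3 was at 31.8 to 316 against 6.10 to 24.8 (log2 -3.03, SE 0.48, adjusted p = 0.000735).

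Markers of other cell types were present in both fractions and moved with the glia side in part. Of 19 microglia genes 13 were higher in glia libraries and 0 in neuron libraries (median -1.07). Their summed level was 2673 to 3514 in glia libraries and 344 to 3418 in neuron libraries. The microglial receptor Cx3cr1 was at 7.53 to 10.5 in the 4 neuron libraries numbered 1 and at 0.0797 to 0.24 in the 3 numbered 2, and at 43.3 to 50.8 in the 4 glia libraries numbered 1 against 3.72 to 28.1 in those numbered 2. The part of microglia in the complement and lysosomal differences was not tested, and C1qa, C1qb and C1qc are on the microglial list as well.

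Fibroblast, vascular and meningeal genes were divided. Of 20 tested, 11 were higher in glia libraries and 4 in neuron libraries (median -1.23), although the summed level was 1917 to 2927 in neuron and 1289 to 3188 in glia libraries. The collagens Col3a1 (46.8 to 177, median 126, against 1.4 to 13.5, median 5.69; log2 -4.02, SE 0.34, adjusted p = 1.64e-05) and the proteoglycan Dcn (61.6 to 197 against 2.67 to 13.8) did not overlap, nor did the forkhead factors Foxc1 and Foxd1. The neuron-high members were the smooth muscle genes Acta2 (536 to 1090 against 158 to 562, log2 1.43, SE 0.24, adjusted p = 0.000943), Tagln, Myh11 and Des. However, the call of Tagln (0.39) was lost in 18 of 28 alternatives, that of Des in 5 and that of Myh11 in 2. Of the endothelial genes Pecam1 reached at most 0.487, Cdh5 was higher in glia libraries (-2.79) and Ly6c1 in neuron libraries (3.43). Cldn5 was listed at 0 in the 15 libraries of day 14, as was the sterol gene Hmgcs1, which most cells use, so such a 0 may be a failed estimate.

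Myelin genes hardly separated the fractions. Of 13 tested, 2 (Mal and Trf) were higher in glia libraries and 0 in neuron libraries (median -0.08). Mbp was at 2.65 to 5.30 in 6 of the 8 glia libraries and at 31.1 and 49.5 in the library numbered 2 of each pairing of WT glia. Neuron libraries were at 4.40 to 15.2. Within the libraries numbered 1 Mbp was higher in neuron libraries by 1.01 (adjusted p = 0.00207), whereas over all libraries it was not called (0.37, adjusted p = 0.492).

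Matrix genes were glia-high in 15 of 29 and neuron-high in 3 (median -0.72). Basement membrane collagens Col4a1 (-2.03) and Col4a2 (-1.80), the collagen VI chains Col6a1 (-2.47) and Col6a2 (-2.73) and the crosslinking enzyme Lox (-2.16) were higher in glia libraries. The neuron-high members were Lamc1, the laminin gamma chain (112 to 204 against 39.2 to 77.8, log2 1.32, SE 0.15, adjusted p = 0.000119), Thbs2 and Sparc. The call of Sparc was lost in 5 of 28 alternatives. Of 28 growth factors 10 were higher in glia libraries, among them Fgf2 (-2.21), Cntf (-1.97) and Ptn (-1.77), and 9 in neuron libraries, among them Bmp4 (1.98), Shh (1.81) and Vegfa (0.75).

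Not everything higher in the neuron libraries was neuronal. Of 23 cell cycle genes tested 20 were higher in neuron libraries and 1 in glia libraries (median 1.10). Mki67, a protein of dividing cells, was at 13.1 to 39.6 in neuron libraries (median 20.7) and 2.66 to 5.19 in glia libraries (median 3.94), 4.46-fold (log2 2.16, SE 0.23, adjusted p = 8.45e-05), with no overlap. Top2a, a topoisomerase of replication and mitosis, was at 22.4 to 71.5 against 6.12 to 8.82 (4.37-fold, SE 0.18, adjusted p = 1.99e-05). The G1 cyclin Ccnd1 went the other way, at 191 to 364 against 385 to 672.

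Over the progenitor list 9 of 20 were higher in neuron libraries and 2, the filaments Vim and Nes, in glia libraries (median 0.46). Nkx6-1, a homeodomain factor of ventral progenitors and of motor neurons, was at 16.6 to 48.8 in neuron libraries (median 30.8) and 0.463 to 1.45 in glia libraries (median 0.918), 17.1-fold (log2 4.09, SE 0.18, adjusted p = 3.72e-07), without overlap. The floor plate genes Foxa2 and Shh were at 0.413 to 20.2 and 6.38 to 54.3 against at most 0.147 and 7.77. Foxa2 was under 1 in 2 of the 3 mutant neuron libraries and at 3.54 to 20.2 in the 4 WT neuron libraries. Olig2, Pax6, Sox1, Sox2 and Hes5 of the progenitor list were not called.

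Of 20 epithelial and other germ layer genes 12 did not pass the filter, and some of the rest, such as Foxa2, passed through their neuron level alone, so no count is read from this list. The simple-epithelium keratin Krt18 was at 8.78 to 26.4 against 0.137 to 1.5 (log2 3.56, SE 0.26, adjusted p = 6.82e-06). Hopx, found in stem and epithelial cells and in heart, was at 47.8 to 208 (median 109) against 1.01 to 4.99 (median 3.14), 27.7-fold (log2 4.79, SE 0.12, adjusted p = 1.9e-08). Neither overlapped between fractions. Most pluripotency genes were low: of 17 listed, 4 passed the filter, with 1 called higher in neuron libraries and 1 in glia libraries (log2 -2.54). The summed level of the list was 6.901 to 20.641 in neuron and 15.121 to 28.321 in glia libraries.

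Among genes without overlap, the 5 most abundant on the neuron side were not neuronal markers. They included the metallothionein Mt1 (2427 to 4513, median 2726, against 1596 to 2294, median 1939; 1.59-fold, SE 0.15, adjusted p = 0.00578; the call was lost in 3 of 28 alternatives), the interferon-induced Ifitm3 (1.84-fold), the serine carboxypeptidase Scpep1 (245 to 656 against 64.7 to 205; 4.50-fold) and the chaperone Hsp90ab1 (1.34-fold). Ctsd, Pea15a and Cd81 (2.19-, 2.83- and 1.68-fold) stood beside Apoe and Cst3 as the 5 most abundant on the glia side.

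Energy genes were called in both directions, as were 24.7% of all genes tested in each direction. Of 22 genes of glycolysis and lactate 5 were higher in neuron libraries (22.7%) and 7 in glia libraries (31.8%), with a median of -0.09. Of 18 respiratory chain genes 3 and 3 were (16.7% each way, median -0.04). These shares lay near or under those of all genes, so they are not read as a trait of energy genes. The glucose transporters Slc2a3 (62.8 to 180 against 14.9 to 46.8; 4.34-fold) and Slc2a1 (146 to 368 against 67.8 to 127; 2.44-fold) were higher in every neuron library, and the lactate genes Ldhb (177 to 272 against 42.2 to 73.8; 3.72-fold) and Slc16a1 (36.3 to 91.7 against 18.1 to 28.8; 2.96-fold) in every glia library. Ldha was not called (log2 0.23, adjusted p = 0.173). Of 22 ALS genes 9 were higher in neuron libraries, led by the axonal motor Kif5a (2.79) and by Vcp (1.09), and 4 in glia libraries, among them mouse Sod1 (-0.43, SE 0.11, adjusted p = 0.00874). Whether reads of the human transgene were counted with mouse Sod1 was not tested.

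Related genes with different cell types of use were compared as pairs. Of 30 pairs, 29 could be tested on both members. In 8 the first member was higher in neuron libraries and the second in glia libraries, in 9 both were called the same way, and in 7 the first was higher in neuron libraries and the second not called. Among those that split were the filaments Nefl (4.53) and Gfap (-1.69), and Ina (3.90) and Vim (-0.66), and the glutamate transporters Slc1a1 (1.43) and Slc1a2 (-2.90). The vesicle partners split by smaller amounts, Vamp2 and Vamp3 at 0.50 and -0.38 (the latter call was lost in 7 of 28 alternatives), and Dnm1 and Dnm2 at 0.88 and -0.69. In 1 further pair, the connexins Gja1 (-0.93) and Gjd2 (1.33), the first was higher in glia libraries and the second in neuron libraries. Tubulins, stathmins and enolases have close copies, so their values may share reads.

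**Figure D2:**
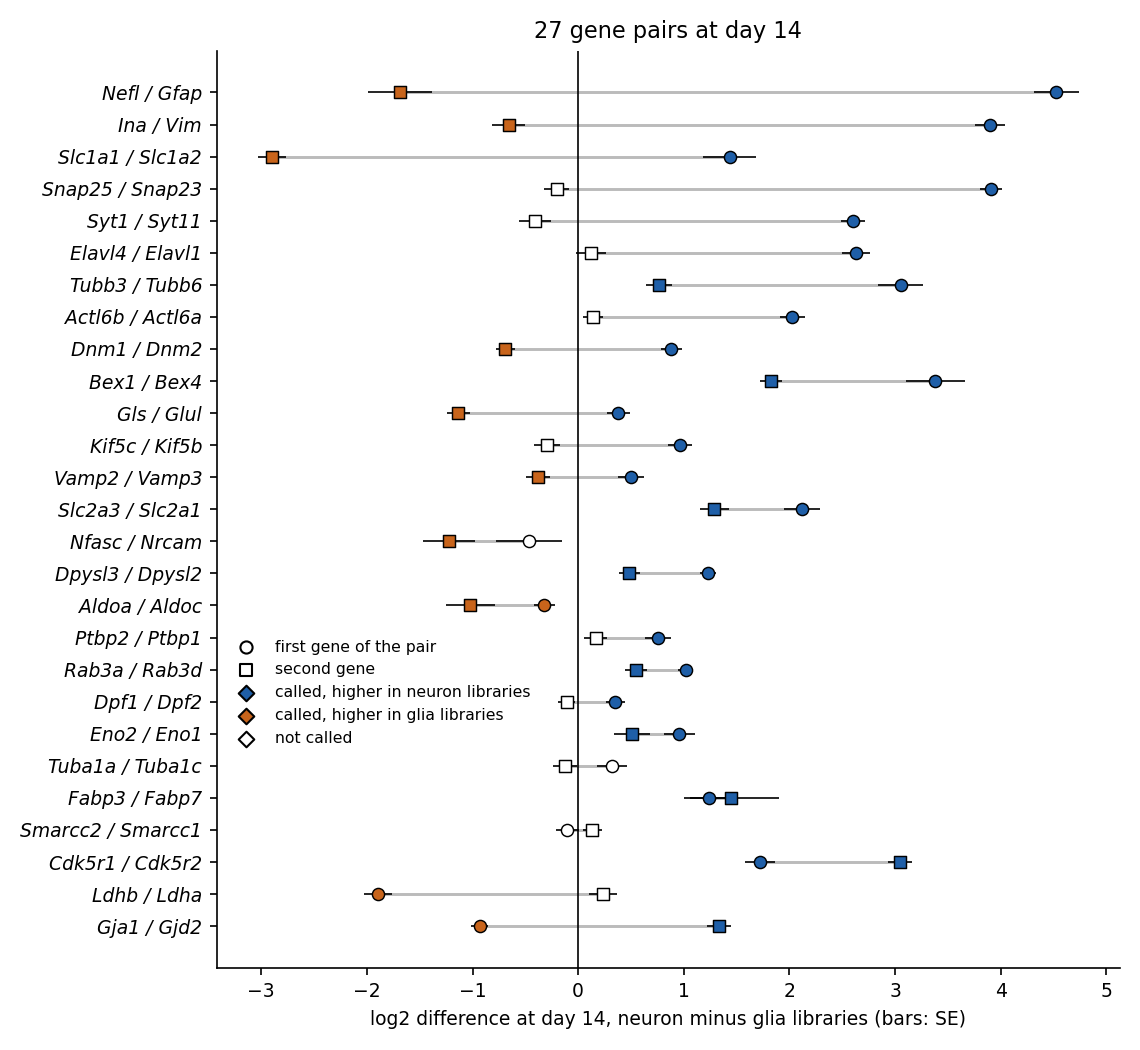
Log2 difference at day 14 (neuron minus glia libraries, with SE bars) of both members of 27 gene pairs, circles for the first and squares for the second member, blue for called higher in neuron libraries, orange for called higher in glia libraries and white for not called. Nefl and Gfap, at the top, lie at 4.53 and -1.69.

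The 7 day 3 libraries numbered 1 stood apart from the other 36 libraries, with rescaling factors of 1.45 to 2.21 against 0.81 to 0.97 and 13914 to 14562 genes at 1 or more against 12057 to 13339. All day 3 values below include them, and the 6 day 3 libraries numbered 2 (2 neuron and 4 glia) give the results without them. Both of those neuron libraries, of mutant and of WT neurons, were grown with mutant glia, while the 4 glia libraries each came from a different pairing. That check is therefore unbalanced for the partner and has no replicate within a day 3 group.

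The differences were smaller at day 14 than at day 3. When all 43 culture libraries were modelled together (15571 genes), the median size of the log2 difference was 0.7175 at day 3, 0.5424 at day 7 and 0.3012 at day 14, and genes with a difference of at least 1 numbered 5765, 4207 and 1903. Without the 7 libraries the medians were 0.784 at day 3 and 0.304 at day 14 over 15152 genes, with 6101 and 1811 genes at 1 or more. The change in difference from day 3 to day 14 was called for 9706 genes (62.3%), 4768 toward neurons (30.6%) and 4938 toward glia (31.7%), and without the 7 libraries for 9122, 4435 and 4687 of them in the same order. Without rescaling the split was 64.59% toward neurons against 49.12%, and the median of all genes moved to 0.21 from -0.02, so directions here hold relative to the bulk of genes. Of 4196 genes higher in neuron libraries at day 14 in this model (26.9%), 2950 were so at day 3 (70.3% of the day 14 list, and 48.3% of the day 3 list, which held 39.2% of genes), and of 4169 higher in glia libraries (26.8%) 3180 were so at day 3 (76.3%, and 54.2% of a day 3 list of 37.7% of genes). The opposite side at day 3 was held by 495 and 294 of them.

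**Figure D3:**
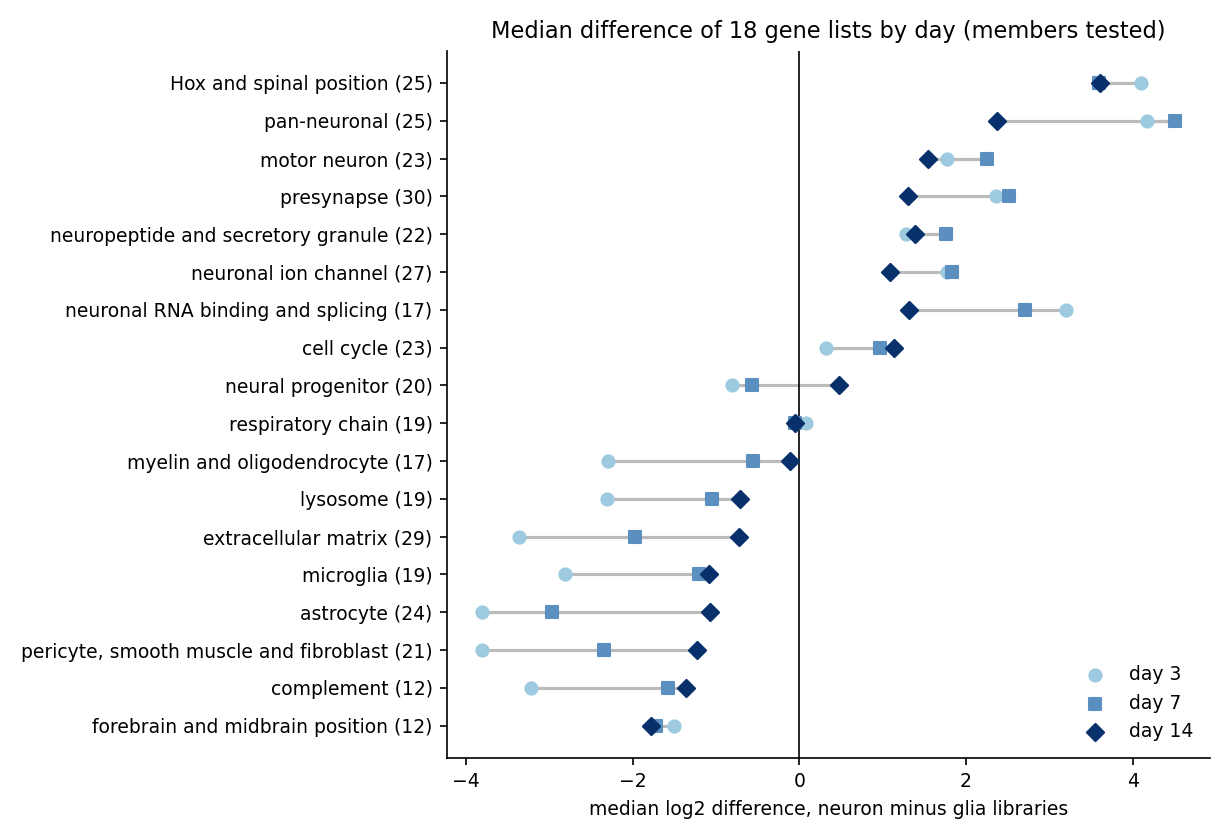
Median log2 difference (neuron minus glia libraries) of 18 gene lists at days 3, 7 and 14, with the number of members tested in brackets. Astrocyte genes move from -3.81 to -1.08 and pan-neuronal genes from 4.18 to 2.38, while forebrain and midbrain genes lie at -1.5 and -1.78.

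In the pan-neuronal list the difference moved toward glia for 21 of 25 members and toward neurons for 1 (median 4.18 at day 3 and 2.38 at day 14), with the same counts without the 7 libraries (4.37 and 2.37). In the list of neuropeptide and secretory granule genes it moved toward glia for 9 of 22 and toward neurons for 4, and the median was 1.28 at day 3 and 1.39 at day 14. Tubb3, the neuronal beta-tubulin, was at a mean of 1006 in neuron libraries at day 3 (824 to 1225 over 6 libraries) and 133 at day 14, against 26.0 and 16.6 in glia libraries, so the difference changed by -2.25 (SE 0.36, adjusted p = 1.8e-05). Nefh, the heavy neurofilament chain of mature axons, was at 23.0 and 37.1 in neuron libraries, and its difference changed by -0.05 (SE 0.25, adjusted p = 0.877), against -1.31 (adjusted p = 0.0305) with voom on recovered reads. The granule genes Scg2 (0.34, adjusted p = 0.22) and Vip (0.54, adjusted p = 0.29) also had changes that did not pass.

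Dcx, a microtubule protein of migrating neurons, was at 71.5 in neuron libraries at day 3 and 3.04 at day 14 (0.884 and 0.219 in glia libraries), a change of -3.70 (SE 0.27, adjusted p = 9.6e-10). Pyy (a peptide), Pax2 (an interneuron factor), Mab21l2, Arhgap36, Islr2, Celf3 and the unnamed uc009frs.1 were the others of the 8 largest changes toward glia, at -4.39 to -3.42. Mnx1 changed by -3.09 (133 to 6.98 in neuron libraries) and Isl1 by -3.35 (47.2 to 2.68). Glia means of Dcx, Pyy, Mab21l2, uc009frs.1, Islr2 and Celf3 were under 1 at both days, and Mnx1 and Isl1 were also low in glia libraries at day 14. The size of these changes therefore follows the pseudocount, as for the HOX genes, and the levels in neuron libraries describe the fall. Pax2 crossed sides, with 11.3 in neuron and 0.593 in glia libraries at day 3 and 0.327 and 1.70 at day 14.

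The astrocyte difference closed from the neuron side. The median over the 24 genes of the mean level in neuron libraries was 8.0 at day 3, 13.1 at day 7 and 48.2 at day 14, while in glia libraries it was 93.4, 116.1 and 104.7. The change was called toward neurons for 23 of 24 genes and toward glia for 0, and for 22 and 0 without the 7 libraries. Aqp4 was at 0.873 in neuron libraries at day 3 (0.381 to 1.68) and 34.4 at day 14, with 100.4 and 93.7 in glia libraries, a change of 4.23 (SE 0.35, adjusted p = 5e-09), and Mlc1 changed by 3.61 and Gfap by 4.20. Slc1a2 was the member without a called change (-0.12, SE 0.22, adjusted p = 0.67), at 7.25 and 5.16 in neuron and 54.9 and 50.1 in glia libraries. The change was also called toward neurons for 18 of 19 microglia, 16 of 17 myelin, 26 of 29 matrix and 18 of 19 lysosomal genes (18, 15, 24 and 18 without the 7 libraries). The median level of the microglia genes was 17.3 at day 3 and 51.6 at day 14 in neuron libraries and 141 and 98.6 in glia libraries. For the myelin genes it was 1.21 and 1.48 in neuron libraries and 8.27 and 2.05 in glia libraries, so that this difference was smaller mainly through the glia level.

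**Figure D4:**
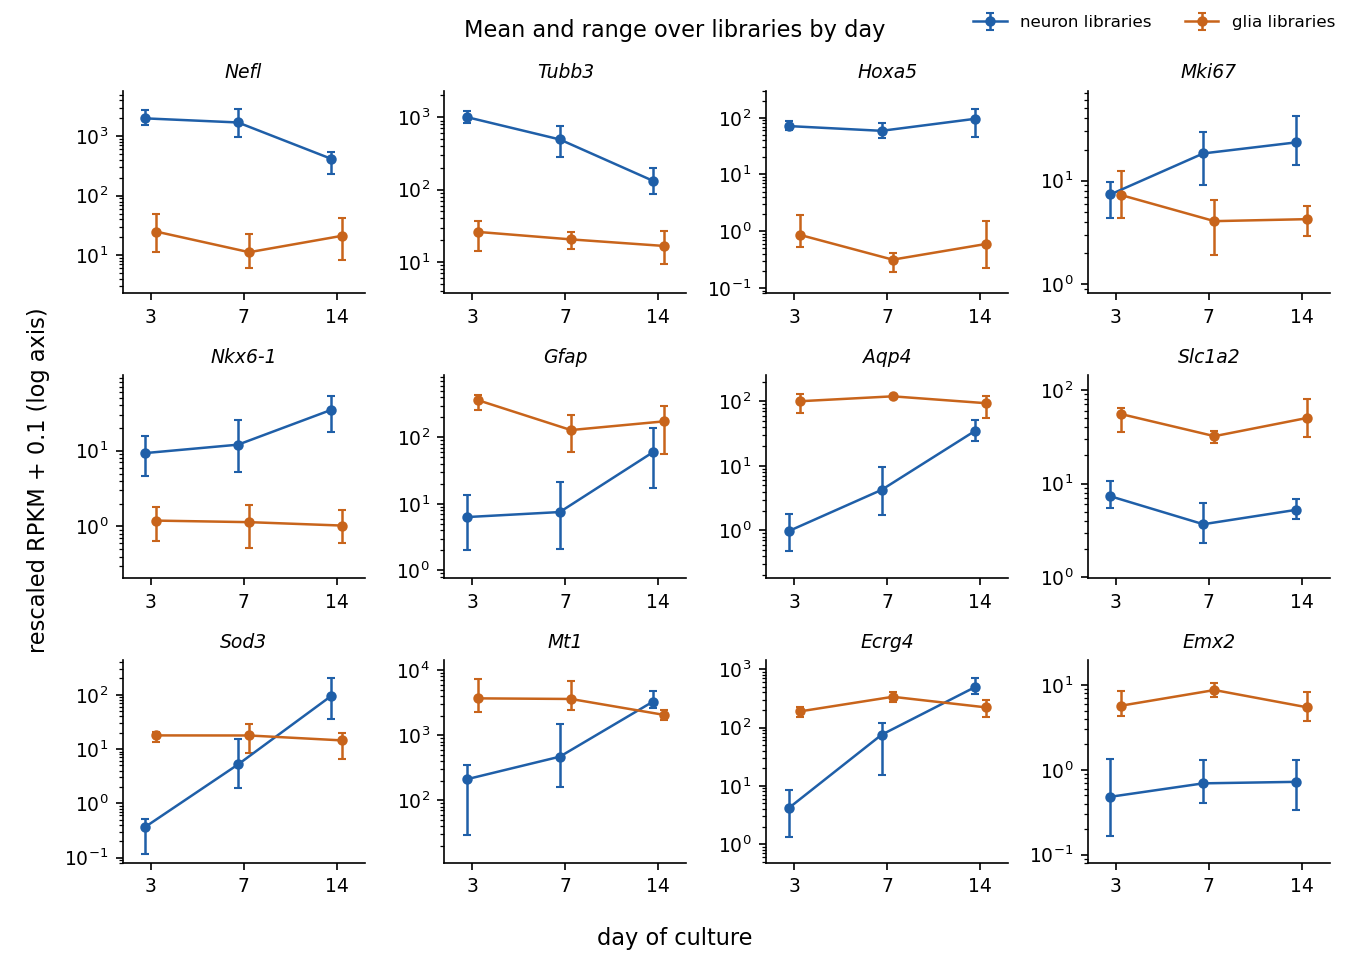
Mean rescaled RPKM plus 0.1 on a log axis at days 3, 7 and 14 for 12 genes in neuron (blue) and glia (orange) libraries, with bars from the lowest to the highest library. Aqp4 in neuron libraries goes from 0.873 to 34.4 while Slc1a2 goes from 7.25 to 5.16, and Sod3, Mt1 and Ecrg4 cross from glia-high to neuron-high.

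Some genes changed sides. The 8 largest changes toward neurons were those of Nupr1, Ecrg4, Sod3, uc009msd.1, Mt1, Thbs2, Lbp and Igfbp3, at 5.14 to 6.78 log2 units. Sod3, the secreted superoxide dismutase, was at 0.266 in neuron and 17.7 in glia libraries at day 3 and at 94.5 and 14.3 at day 14, a change of 6.45 (SE 0.40, adjusted p = 1.5e-10). In the day 14 fit it was at 34 to 187 in neuron libraries against 6.01 to 18.1 in glia libraries (5.87-fold, adjusted p = 2.06e-05), without overlap. Ecrg4, a secreted peptide of epithelia and choroid plexus, went from 4.03 against 188 to 488 against 222, and Mt1 from 211 against 3678 to 3264 against 2052. Both were higher in every neuron than in every glia library at day 14, whereas Igfbp3 ended level (log2 -0.05, adjusted p = 0.807). Nupr1, a stress-induced factor, overlapped at day 14 (88.2 to 360 against 63.6 to 149; log2 0.92, adjusted p = 0.0428), and that call was lost in 14 of 28 alternatives.

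Cell cycle genes were not on 1 side at day 3, when 4 of 23 were called higher in neuron and 5 in glia libraries. Mki67 was at 7.26 in neuron and 7.15 in glia libraries at day 3, with overlapping ranges, and at 23.4 and 4.15 at day 14, a change of 2.09 (SE 0.47, adjusted p = 0.00067). The change was called toward neurons for 15 of 23 members and toward glia for 0, and the median difference of the list was 0.32 at day 3 and 1.13 at day 14. Without the 7 libraries the day 3 median was -0.65, the day 14 median 1.09, and 21 members changed toward neurons. Nkx6-1 in neuron libraries went from 9.21 to 34.5 (change 2.11, SE 0.37, adjusted p = 5.5e-05), and Hopx from 33.2 to 134 (change 2.71, SE 0.37, adjusted p = 3.4e-06).

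**Figure D5:**
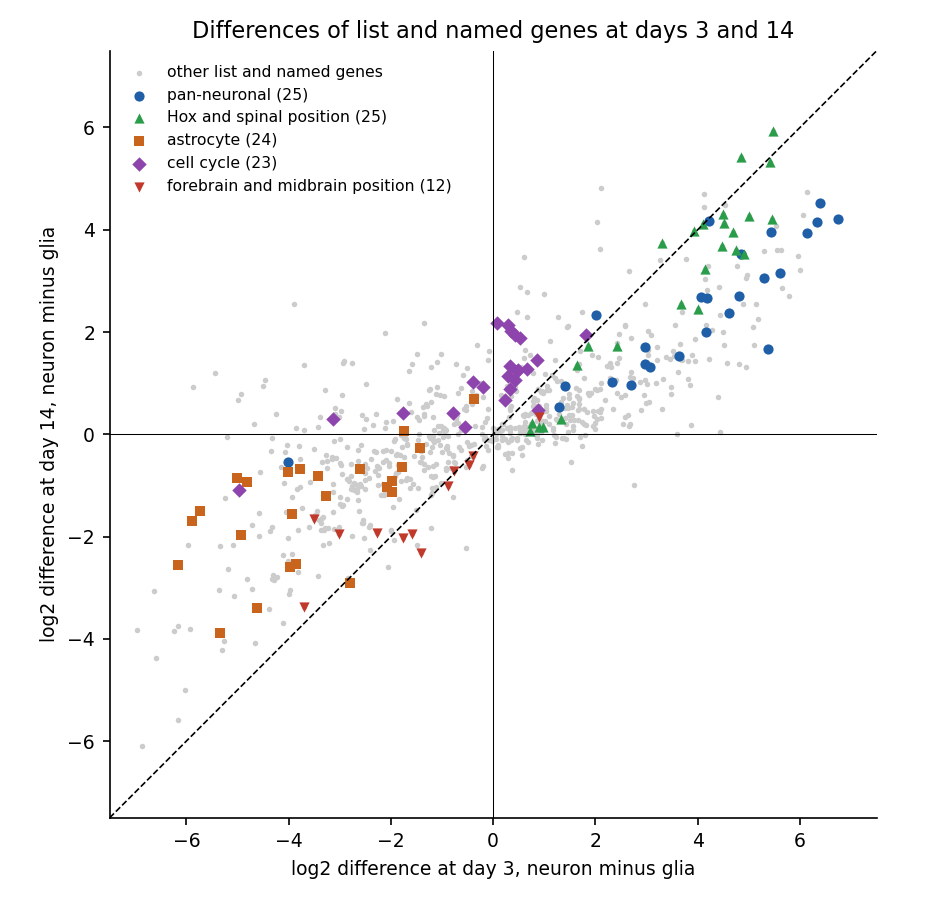
Log2 difference at day 3 (x axis) and day 14 (y axis), neuron minus glia libraries, for the list and named genes in a model of 43 libraries, with 5 lists coloured and equality dashed. Most pan-neuronal and astrocyte genes lie closer to 0 at day 14 than at day 3, with Slc1a2 on the dashed line, and most cell cycle genes lie above it.

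Genotype was tested last, as the neuron-glia difference in sandwiches of 2 mutant partners minus that in sandwiches of 2 WT partners. No gene passed with limma (0 of 14431, 0.0%), and 669 had an unadjusted p under 0.05. With voom on recovered reads it was 0 as well, with 830 at an unadjusted p under 0.05. Without the replicate block 1 gene passed, uc007hxv.1. The 5 genes of smallest adjusted p were uc007hxv.1 (log2 2.97, adjusted p = 0.085), Trap1a, Nxf3, Cth and Rec8. Trap1a, an X-linked tumour rejection antigen, was at 9.46 to 21.2 in the 3 mutant neuron libraries, at 1.32 to 2.66 in the 4 WT neuron libraries and at most 0.435 in any glia library. Rec8, a meiotic cohesin, was at 19.6 to 26.9 against 6.44 to 8.93 in the same sets, and uc007hxv.1 at 3.85 to 6.26 against 0.109 to 0.518. In glia libraries uc007hxv.1 was at 0.97 to 1.36 where the glia were WT and at 0.13 to 0.25 where they were mutant. Cth, a cysteine synthesis enzyme, ran the other way, at 1.30 to 2.07 in mutant and 2.93 to 4.83 in WT neuron libraries. The genes were picked for their difference, so these values are a description.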

How the data were processed

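The authors deposited 1 table of gene values for the culture libraries with 27389 entries, 127 of them blank. Its unit is not named in the table and was taken as RPKM (read number per unit of gene length and of library total), deposited by the authors, because 99.88% of the 22784 entries above 0 came out as whole reads (tolerance up to 0.12). Bowtie and mm9 are named in the submitters' processing notes, with no version; how genes were counted is not stated there. The RPKM values were divided by median-of-ratios factors, log2(value + 1) was taken, and genes reaching 1 in 2 libraries or more were tested with limma 3.58.1 (R 4.3.3; lmFit, eBayes with trend) with replicate number as block and Benjamini-Hochberg adjustment at 0.05. Residual degrees of freedom were 6 for day 14 and 16 for the 43-library model, whose factors were computed separately, so levels by day differ slightly from day 14 values. The fit was tested on simulated data. Named genes were, for day 14, the 12 largest differences and 5 highest levels in each direction among called genes without overlap, with 1 entry and a mean of at least 10 in the higher fraction. For the change from day 3 they were the 8 largest in each direction among called genes with a mean of at least 10 in 1 of the 4 sets by fraction and day, and for genotype the 5 smallest adjusted p. Examples of 40 lists and 30 pairs were added. The members and lists were chosen with earlier results of these data known. Alternatives covered rescaling, pseudocount, filter, block, voom on recovered reads and each library left out; 3 were added after seeing the data (libraries of 1 replicate number only, the 2 glia libraries of fewest reads left out, and the 7 day 3 libraries numbered 1 left out). Some genes that meet the naming rule are not reported here.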

Additional observations from a re-analysis of the deposited data

Results flagged for a closer look

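In 2 of 68 sets of libraries checked for the named genes, 1 library stood far from the others, and chance flags about 1 in 20 such sets. Scg2 was highest in WT neurons with WT glia, library 2, at 95.16, while the other 6 neuron libraries lay at 49.4 to 60.9. Pea15a was lowest in mutant neurons with mutant glia, library 2, at 423.2, against 557 to 665 in the other 6.

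The neuron-glia difference itself changed between day 3 and day 14 for 9706 of 15571 genes, by the test of that change in the model of 43 libraries. The log2 changes toward glia that stood out were those of Pyy (-4.386), Pax2 (-3.755), Dcx (-3.695), Mab21l2 (-3.691), uc009frs.1 (-3.662), Arhgap36 (-3.628), Islr2 (-3.587) and Celf3 (-3.423). Those toward neurons were Nupr1 (6.781), Ecrg4 (6.636), Sod3 (6.445), uc009msd.1 (5.711), Mt1 (5.654), Thbs2 (5.522), Lbp (5.447) and Igfbp3 (5.144). Where glia values were low, the size of a change toward glia follows the pseudocount.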

How the results depend on the processing

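The count of genes called at day 14 (7136) lay between 5085, in libraries numbered 2 only, and 8365, in the model of 43 libraries, and between 6090 and 7163 with 1 library left out. The count for the change from day 3 (9706) lay between 7930 and 10522, and between 9031 and 9861 with 1 library left out. All these were within 1.5 times the reported counts. Libraries of the same number shared variation in part. Of 21 same-numbered correlations, taken after removing group means, 15 passed 0.1 (median 0.243, lowest -0.069), and the second principal component went with the number. Since not all passed, the number was not taken to pair the libraries, but it was kept as block. All 6 pairs of glia libraries and 2 of 3 pairs of neuron libraries passed, against 7 of 12 pairs across fractions. Without the replicate block 6035 and 8367 genes were called, and for genotype 1 against 0. With 1 library left out the genotype count was 0 each time. Of 153 genes tested at day 14 under 28 alternatives, 118 kept their call in every alternative in which they were tested and 35 had a changed call in at least 1. Of 30 genes whose change from day 3 was recomputed, 28 kept their call in the 36 alternatives, and Emx2 and Nefh did not. The cause was not tested. Replicate number went with depth, so the part of either cannot be told apart here. Among the genes tested at day 14, 4 lost their call in libraries numbered 1 only, which held fewer reads. In libraries numbered 2 only, 23 did.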
